A study of Mus musculus with 38 samples.

Results

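The genes described here encode the mitochondrial respiratory chain and the ATP synthase, and their RNA was compared between irradiated and sham-exposed mouse spleen. They were taken as every array probe whose RefSeq accession led to 1 gene symbol beginning with Nduf, Sdha to Sdhd, Uqcr, Cox with a digit, Cyc1, Cycs or Atp5. This gave 46 members among 21618 distinct probes, of which 6518 had 1 symbol. Male mice of 6 inbred strains received 10 rad of X-rays or a sham exposure, and spleens were taken 3.5 h later. The labels give their age as 10 to 14 weeks, and the study's methods as 8 to 10 weeks. In the labels' spelling the strains are BalbxJ, B6.C and A/J with 8 arrays each, C3H with 6, and BI6Jx and DBA/2J with 4 each. The study's methods name Balb/C, C57Bl6/J and C3H/HeJ, which are taken here to be BalbxJ, BI6Jx and C3H. Every array held RNA of an irradiated mouse in one dye and of a sham-exposed mouse in the other, and each pair of mice was hybridised again with the dyes exchanged. Irradiated RNA carried Cy5 on 19 arrays and Cy3 on the other 19, in equal numbers within every strain. No transgene or deletion is named for any group, and whole spleen was used, so that fewer cells of a type and less RNA per cell cannot be told apart.

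The respiratory chain sits in the inner mitochondrial membrane. Complex I takes electrons from NADH and complex II from succinate, ubiquinone carries them to complex III, cytochrome c carries them on to complex IV, and complex IV passes them to oxygen. Complexes I, III and IV pump protons as they do so, and complex V, the ATP synthase, uses the return of the protons to make ATP. In lymphoid cells of the spleen the chain supplies ATP and supports proliferation, and cytochrome c that leaves the mitochondrion takes part in apoptosis.

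Of 111 protein-coding symbols that met the naming rule in the reference table, the 46 on the array were 16 of complex I, 2 of complex II, 6 of complex III with cytochrome c, 13 of complex IV and 9 of complex V. Among them, 2 are assembly factors and not subunits, Sdhaf4 for complex II and Cox16 for complex IV. Complex I was represented by accessory subunits of the Ndufa, Ndufb and Ndufc groups and by Ndufs4, and no Ndufv gene and no other Ndufs gene was among the named probes. Complex III was represented by the core protein Uqcrc1, the Rieske iron-sulphur protein Uqcrfs1, cytochrome c1 (Cyc1) and the small subunits Uqcrb and Uqcr11. Complex V was represented by the alpha subunit and the catalytic beta subunit (Atp5a1, Atp5b), the epsilon subunit (Atp5e), genes of the membrane ring (Atp5g1, Atp5g2) and small membrane subunits.

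Promoters of 4 members are shown because they hold the letter patterns counted below and belong to genes to which the results return. Each is 300 bases long, from 250 before to 50 after the transcript start in RefSeq on GRCm38.p6, read 5′ to 3′ on the gene's own strand, with the pattern in capitals. Ndufa7 at chr17:33824395-33824694 (plus strand) and Ndufc1 at chr3:51408906-51409205 (minus strand) each hold AANATGGC, the core of a YY1 site. Cox6b1 at chr7:30626065-30626364 (minus strand) holds CCGGAAG, the core of a GABP site, on the opposite strand. Ndufa5 at chr6:24527477-24527776 (minus strand) holds the core of an NRF1 site, in which GCGCA and GCGC are parted by any base.
Ndufa7: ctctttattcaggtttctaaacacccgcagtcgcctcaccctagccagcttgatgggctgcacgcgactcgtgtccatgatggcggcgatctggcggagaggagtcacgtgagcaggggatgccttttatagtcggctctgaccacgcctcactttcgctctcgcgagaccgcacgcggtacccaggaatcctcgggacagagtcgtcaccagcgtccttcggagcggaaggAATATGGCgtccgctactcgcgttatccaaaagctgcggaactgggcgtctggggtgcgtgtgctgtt
Ndufc1: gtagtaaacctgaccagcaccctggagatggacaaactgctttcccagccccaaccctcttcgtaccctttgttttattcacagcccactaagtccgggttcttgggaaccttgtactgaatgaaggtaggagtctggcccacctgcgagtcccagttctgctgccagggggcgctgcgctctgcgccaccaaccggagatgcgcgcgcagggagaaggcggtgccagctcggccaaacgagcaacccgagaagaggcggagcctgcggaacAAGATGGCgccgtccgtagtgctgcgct
Cox6b1: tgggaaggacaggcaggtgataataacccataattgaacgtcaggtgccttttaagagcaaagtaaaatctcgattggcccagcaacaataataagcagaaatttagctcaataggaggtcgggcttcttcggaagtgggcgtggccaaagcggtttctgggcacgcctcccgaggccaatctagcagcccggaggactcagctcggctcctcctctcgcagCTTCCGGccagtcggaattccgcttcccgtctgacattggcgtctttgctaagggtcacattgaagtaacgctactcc
Ndufa5: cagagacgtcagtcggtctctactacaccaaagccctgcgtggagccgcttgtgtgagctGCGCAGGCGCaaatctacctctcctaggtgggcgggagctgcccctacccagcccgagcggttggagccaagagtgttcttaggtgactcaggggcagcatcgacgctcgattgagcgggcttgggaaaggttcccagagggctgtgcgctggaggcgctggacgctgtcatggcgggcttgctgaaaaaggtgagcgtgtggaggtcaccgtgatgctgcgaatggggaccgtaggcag

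The reference held 43 promoters for 39 member genes, and both strands were searched. The NRF1 core was in 8 of the 43 (18.6%) against 4.6% of all 32851 promoters and 6.38% of those of protein-coding genes. CCGGAAG was in 11 (25.6%) against 8.86% and 11.6%. AANATGGC was in 10 (23.3%) against 6.05% and 6.37%. The GC box GGGCGG was in 19 (44.2%) against 35.7% and 46.2%, and the ERR site TCAAGGTCA was in 0 of 43 against 0.423% and 0.334%. The genes with AANATGGC were Atp5b, Atp5j, Atp5j2, Ndufa7, Ndufa9, Ndufb11, Ndufb5, Ndufb8, Ndufc1 and Ndufs4. These are matches of letters in a fixed window, which say nothing of binding.

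The deposited values are signed scores of unstated scale, log base and dye direction, so no fold changes are reported. Arrays were centred on their medians over all probes, and values of arrays with irradiated RNA in Cy3 were multiplied by -1, which is called turning below. If the authors divided Cy5 by Cy3, a positive turned value means more signal in irradiated RNA, and if they divided Cy3 by Cy5 it means less, so values are given as lying on the positive or the negative side. The authors may already have set every ratio as irradiated over sham, or the reverse. The values without turning, given further down, would then be the response. Neither the labels nor the study's methods state which was done. After turning, markers of the pancreas had medians of -2.94 and -4.24 on A/J arrays 45 (Cy3) and 46 (Cy5). They were -1.67 and -1.98 on B6.C arrays 52 (Cy3) and 51 (Cy5). On BalbxJ arrays 4 (Cy3) and 5 (Cy5) they were -1.62 and -1.75. On A/J arrays 90 (Cy3) and 89 (Cy5) they were 0.332 and -1.33. The labels do not say which arrays share mice, and the direction was not tested. Between 10941 and 19860 probes had a value on an array, array medians as deposited ran from -3.16 to 3.95, and the SD over probes ran from 0.616 to 2.35. Within one dye orientation, 15 arrays correlated below -0.3 with at least 1 other array over all probes. In 3 of them this held for at least 3 others: arrays 50 and 53 of B6.C and array 97 of BI6Jx. Which way these 3 arrays run is unsettled, and results are also given after reversing them. A ratio between 2 spleens gives no level, so the tissue label could not be checked by marker levels. Of the markers of spleen cell types on the array, 7 of 7 for B cells, 3 of 6 for T cells and 4 of 4 for macrophages were measured widely enough to be tested.

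Members had values on 10 to 38 arrays, with a median of 34, against a median of 32 over all probes. Atp5l, Cox6a1, Ndufa7 and Ndufc1 had a value on all 38 arrays. Testing required a value on 19 or more arrays and, in every strain, on arrays of either dye orientation, which held for 14513 probes and 35 members. By complex, 12 of 16, 1 of 2, 6 of 6, 9 of 13 and 7 of 9 were tested, from complex I to V. The 11 not tested were Ndufa1, Ndufa2, Ndufb2, Ndufs4, Sdhaf4, Cox4i1, Cox5a, Cox7a1, Cox8a, Atp5j and Atp5k. Ndufs4, with values on 10 arrays, and Cox7a1, with values on 11, were the most sparsely measured. Since the filter did not use the response, the 35 were not chosen by how they moved, but they are the more widely measured members.

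Over all strains no respiratory chain gene passed the test. Each strain gave 1 value per gene, the mean of its Cy5 and its turned Cy3 arrays, and limma compared the 6 strain values with 0. At an adjusted p under 0.05 there were 0 of 14513 probes (0%) and 0 of 35 members, and the lowest adjusted p of a member was 0.567. At an unadjusted p under 0.05 there were 1191 probes (8.21%) and 2 members, Uqcrb on the positive side, as 4.27% of all probes, and Sdhc on the negative side, as 3.94%. The mean lay on the positive side for 14 of 35 members against 48.7% of all probes, and the median over the members was -0.033 against -0.00675 over all probes tested. The strain values of 1 member, Sdhc, had a single sign in all 6 strains, as did 4.27% of all probes. With the 3 unsettled arrays reversed, 0 members passed at an adjusted and 0 at an unadjusted p under 0.05, and 13 of 35 lay on the positive side.

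**Figure D1:**
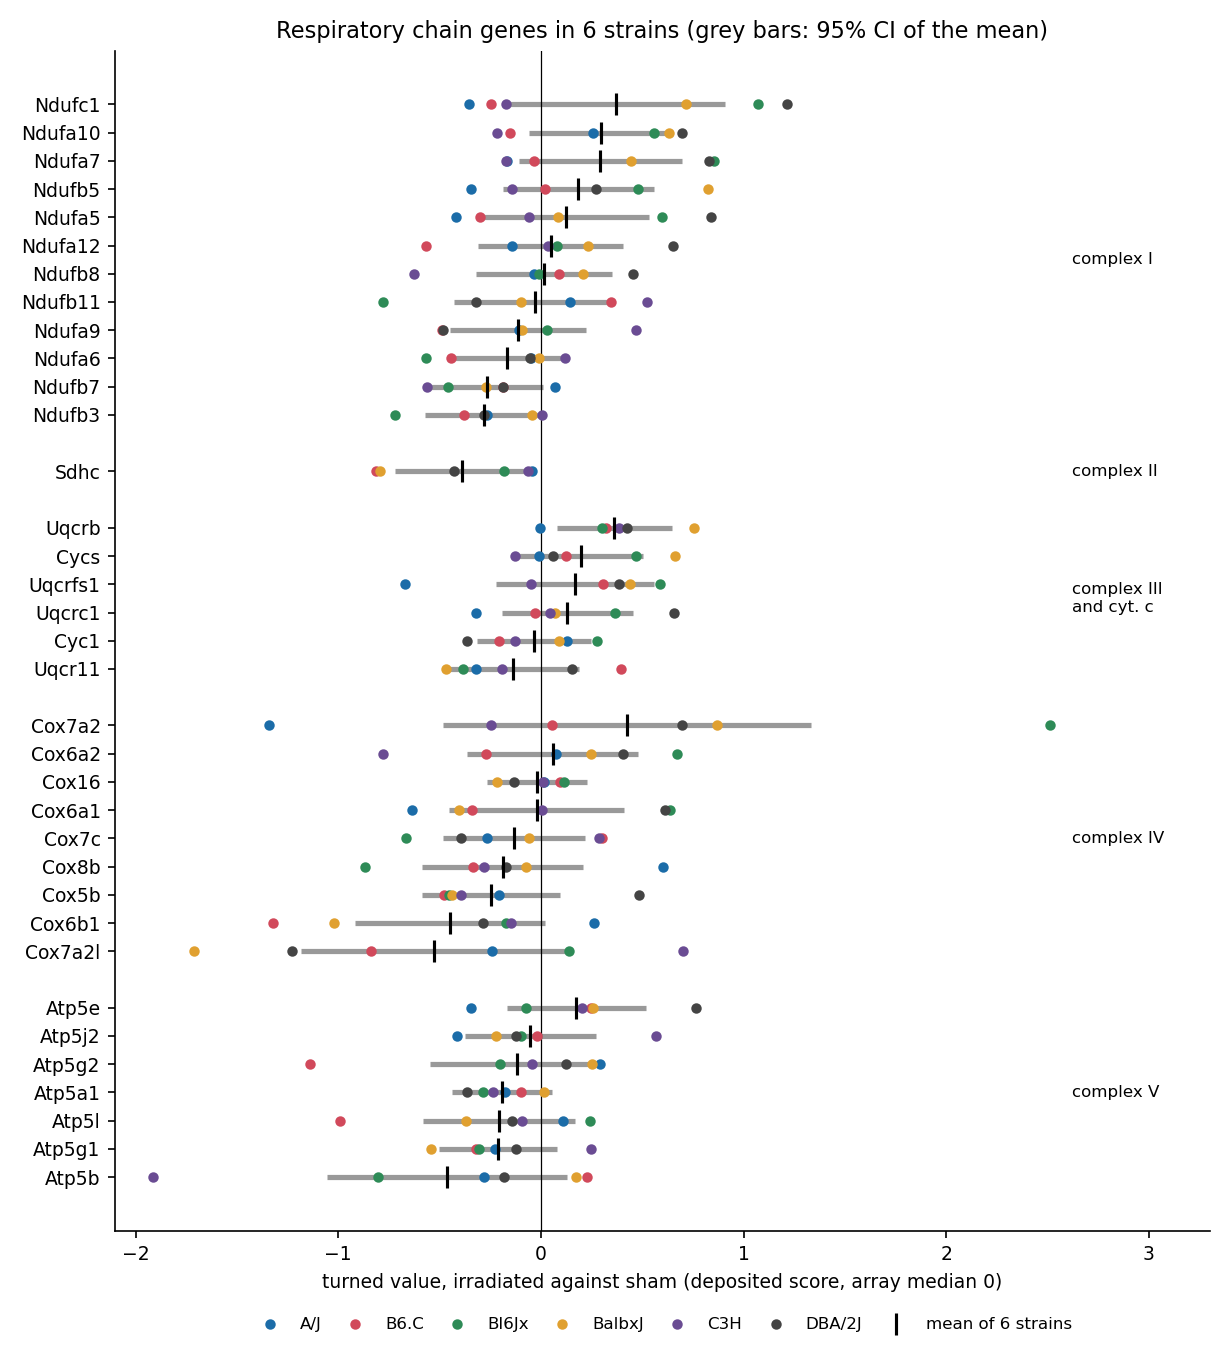
Turned scores (horizontal axis, arrays centred on their medians) of the 35 tested members, grouped by complex. Points are the 6 strain values, black ticks their means and grey bars the 95% confidence intervals from limma. For Uqcrb and Sdhc the interval leaves out 0, and both had an adjusted p of 0.567.

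In complex I, 7 of 12 tested members lay on the positive side and 5 on the negative side, with means from -0.281 to 0.371 and a median of 0.031. The smallest p-values belonged to the accessory subunits Ndufb3, Ndufb7 and Ndufa10. The strain values of Ndufb3 ran from -0.719 in BI6Jx to 0.007 in C3H, with a mean of -0.281 ± 0.261 (SD, n = 6 strains; limma, adjusted p = 0.567). Those of Ndufb7 ran from -0.561 in C3H to 0.07 in A/J, with a mean of -0.266 ± 0.224. Both genes were therefore on the negative side in 5 of 6 strains, by amounts that overlap 0 in the 95% interval of the mean (-0.571 to 0.01 for Ndufb3). Ndufa10, at 0.297 ± 0.401, was on the positive side in 4 of 6 strains, up to 0.697 in DBA/2J, and its mean was 0.117 without array 97 and 0.476 without array 95 of BI6Jx. With the 3 unsettled arrays reversed the means were -0.086 for Ndufb3, -0.042 for Ndufb7 and 0.164 for Ndufa10.

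Ndufc1 had the highest mean of complex I, 0.371 ± 0.711 (SD, n = 6), with 3 strains above 0 and 3 below. It stood at 1.22 in DBA/2J, 1.07 in BI6Jx and 0.717 in BalbxJ, and at -0.173 in C3H, -0.249 in B6.C and -0.356 in A/J. Ndufa7 had the same 3 strains on the positive side, at 0.83, 0.856 and 0.446, and the other 3 between -0.174 and -0.036. The 2 genes ran together over arrays (r = 0.917), so they are not separate observations. The test between strains described below gave F = 1.93 for Ndufc1 and 0.957 for Ndufa7 (limma, adjusted p = 0.879 and 0.962). In BalbxJ Ndufc1 averaged 2.16 on Cy5 arrays and -0.73 on turned Cy3 arrays. With the 3 arrays reversed the means of Ndufc1 and Ndufa7 were 0.295 and 0.249, and without array 97 they were 0.275 and 0.184. The means of Ndufa5, Ndufa12, Ndufb5 and Ndufb8 lay between 0.014 and 0.185, and those of Ndufa6, Ndufa9 and Ndufb11 between -0.167 and -0.031. Of the members not tested, Ndufa1 had strain values from -0.785 to 0.022, Ndufa2 from -0.348 to 0.836 and Ndufb2 from -0.28 to 0.385, and Ndufs4 gave a strain value in BalbxJ alone, of -0.308.

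Complex II was represented among the tested genes by Sdhc, which encodes a membrane anchor of succinate dehydrogenase. Its strain values were -0.812 in B6.C, -0.794 in BalbxJ, -0.427 in DBA/2J, -0.182 in BI6Jx, -0.066 in C3H and -0.043 in A/J. The first 3 strains were lower than the last 2, which were close to 0. Their mean was -0.387 ± 0.35 (SD, n = 6; 95% interval -0.718 to -0.056; limma, adjusted p = 0.567). On single arrays Sdhc ran from -2.72 to 2.21, and 21 of 37 arrays were below 0. The BI6Jx value rested on array 97, at -2.62, where the other 3 arrays of the strain lay between 0.442 and 0.77. Without array 97 the mean over strains was -0.246, without all 3 unsettled arrays it was -0.178, and with those 3 reversed it was 0.000788. Markers of the exocrine pancreas, an organ that adjoins the spleen, lay on the same side, with 14 of 14 tested below 0, a median of -0.473 and strain medians from -0.909 in BalbxJ to 0.084 in C3H, and their part in the Sdhc values was not tested. The assembly factor Sdhaf4 was not tested and had strain values from -0.443 to 1.57.

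In complex III with cytochrome c, 4 of 6 members lay on the positive side, and the median was 0.149. With the 3 unsettled arrays reversed 2 of 6 did, with a median of -0.025, and without array 97 alone the median was -0.01. Uqcrb, a small subunit that binds ubiquinone, had the smallest p of all members. Its strain values were 0.753 in BalbxJ, 0.423 in DBA/2J, 0.383 in C3H, 0.323 in B6.C, 0.3 in BI6Jx and -0.004 in A/J. The values of 5 strains were thus on the positive side and that of A/J was next to 0. The mean was 0.363 ± 0.243 (SD, n = 6; 95% interval 0.08 to 0.646; limma, adjusted p = 0.567). On single arrays Uqcrb ran from -3.33 to 4.52, and in C3H the Cy5 arrays averaged -1.13 and the turned Cy3 arrays 1.89. In BalbxJ array 36 stood at 4.49 and the other 7 arrays between -0.694 and 1.31, and without it the mean over strains was 0.287. With the 3 unsettled arrays reversed the mean was 0.079.

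Cycs, which encodes cytochrome c, had a mean of 0.196 ± 0.304 (SD, n = 6; limma, adjusted p = 0.599), with strain values from -0.128 in C3H to 0.661 in BalbxJ. Array 36 of BalbxJ again stood apart for this gene, at 4.16 against -0.983 to 0.52 on the other arrays of the strain. The mean was 0.091 without that array and -0.003 with the 3 unsettled arrays reversed. Uqcrfs1 had a mean of 0.166 ± 0.462 and strain values from -0.673 in A/J to 0.586 in BI6Jx, and its mean was -0.084 with the 3 arrays reversed and -0.119 without them. Uqcrc1 had a mean of 0.131, Cyc1 of -0.033 and Uqcr11 of -0.136.

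In complex IV, 2 of 9 tested members lay on the positive side, and the median was -0.133. Cox6b1, a small subunit that faces the intermembrane space, had strain values of -1.32 in B6.C, -1.02 in BalbxJ, -0.286 in DBA/2J, -0.17 in BI6Jx, -0.147 in C3H and 0.261 in A/J. The mean was -0.448 ± 0.598 (SD, n = 6; limma, adjusted p = 0.567), and B6.C and BalbxJ lay below the other 4 strains. The test between strains described below gave F = 2.02 (limma, adjusted p = 0.875). With the 3 arrays reversed the mean was -0.076, and the B6.C coefficient was -0.202, above that of DBA/2J at -0.286. Cox7a2l, a relative of Cox7a2 that joins complexes III and IV into supercomplexes, had the lowest mean of all members, -0.529 ± 0.898, with strain values from -1.71 in BalbxJ to 0.702 in C3H. With the 3 arrays reversed its mean was -0.238, and Atp5b was the lowest member at -0.384.

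Cox5b, a subunit on the matrix side, stood between -0.476 and -0.206 in 5 strains and at 0.483 in DBA/2J, with a mean of -0.248 ± 0.371. Its BI6Jx value rested on 1 Cy5 array at 1.18 and 1 turned Cy3 array at -2.08. In DBA/2J it averaged 2.07 on Cy5 arrays and -1.11 on turned Cy3 arrays. Cox7a2 had the highest mean of all members, 0.424, and also the widest spread over strains (SD 1.29, n = 6), from -1.34 in A/J to 2.51 in BI6Jx. With the 3 arrays reversed its mean was 0.111, below those of Ndufc1 and Ndufa7. The means of Cox16, Cox6a1, Cox6a2, Cox7c and Cox8b lay between -0.187 and 0.058. Of those not tested, Cox4i1 had strain values from -0.221 to 1.67, Cox5a from -0.155 to 0.502 and Cox8a from -0.636 to 0.123.

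In complex V, 1 of 7 tested members lay on the positive side, and the median was -0.191. Atp5b, the catalytic beta subunit, had a mean of -0.463 ± 0.801 (SD, n = 6; limma, adjusted p = 0.569). Its C3H value of -1.91 rested on array 27, which stood at -13.1 where the other 5 arrays of the strain lay between -0.078 and 0.825. Without array 27 the mean over strains was -0.089. Atp5a1, the alpha subunit, varied least between strains of the genes of complex V, from -0.367 in DBA/2J to 0.018 in BalbxJ, with a mean of -0.191 ± 0.137 that was -0.101 without array 97 and -0.049 with the 3 arrays reversed. Atp5g1, for subunit c of the membrane ring, had a mean of -0.211 ± 0.265 and lay on the negative side in 5 of 6 strains. Atp5e was the member on the positive side, at 0.175 ± 0.372, and Atp5g2, Atp5j2 and Atp5l had means between -0.207 and -0.051. Of those not tested, Atp5j had strain values from -0.262 to 1.55 and Atp5k from -0.778 to 0.349.

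**Figure D2:**
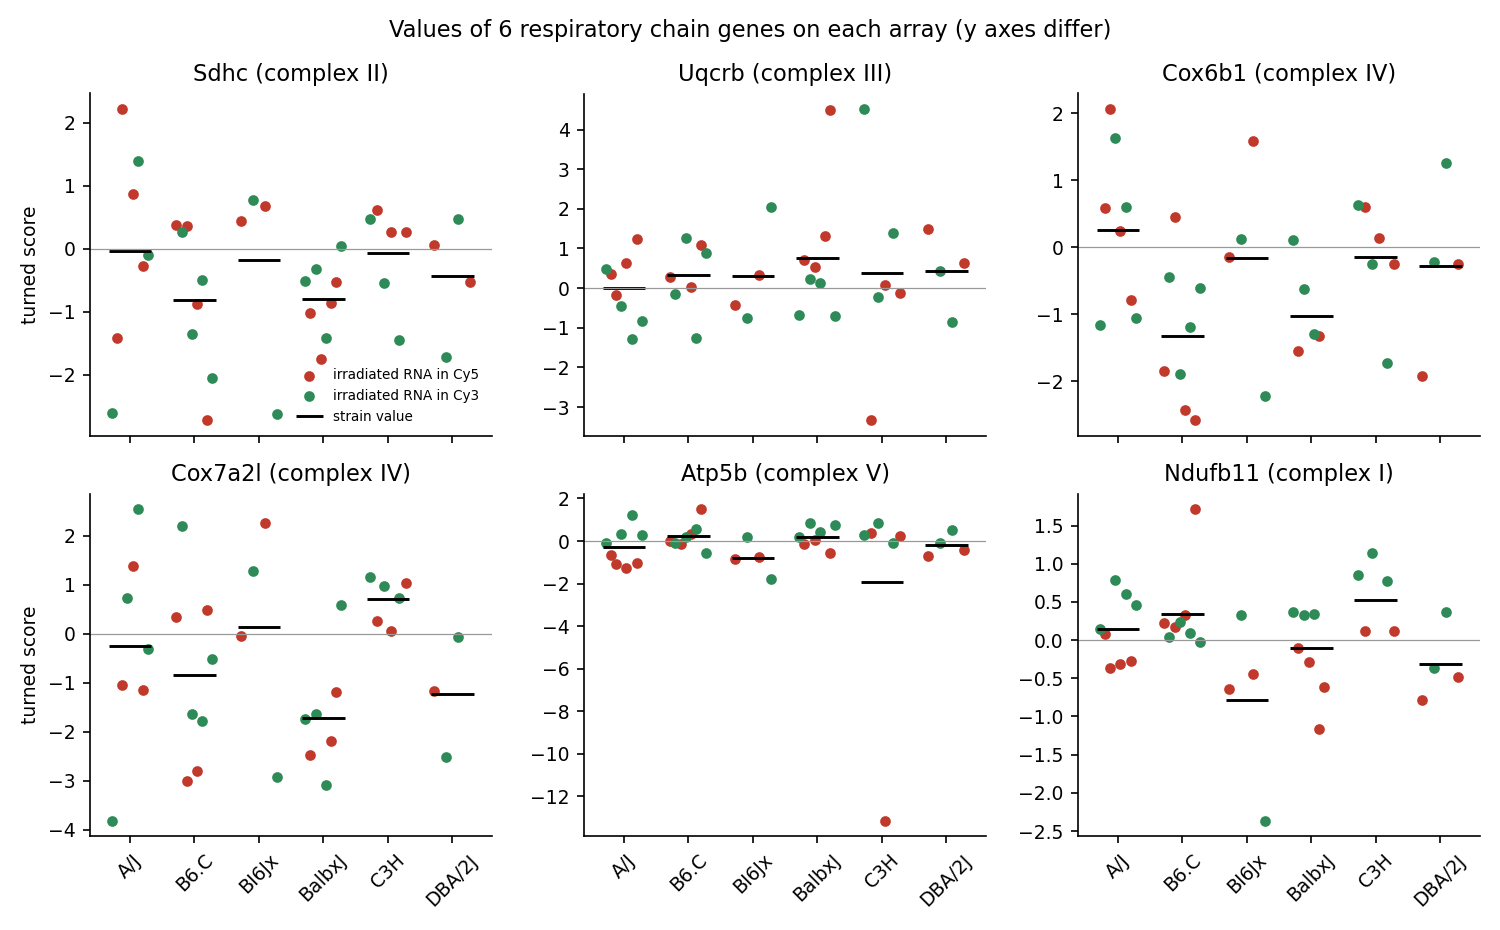
Turned scores (vertical axes, which differ in range) of 6 members on each array, by strain. Points are arrays, coloured by the dye of the irradiated RNA, and bars are strain values. Single arrays set the BI6Jx value of Sdhc and the C3H value of Atp5b, where array 27 stood at -13.1.

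Within single strains no member passed the test either. Here limma was fitted to the 38 arrays with a coefficient per strain and a term for dye orientation. Arrays were thus the units, and p-values are too small if both arrays of a pair of mice deviate together. All strains shared 1 estimate of the spread of each probe, and arrays were not scaled. The SD over probes had a median of 2.17 over the C3H arrays, and of 0.813 (DBA/2J) to 1.39 (BI6Jx) in the other strains. Probes at an adjusted p under 0.05 were 0 in A/J (0%), 27 in B6.C (0.186%), 5 in BI6Jx (0.0345%), 0 in BalbxJ (0%), 74 in C3H (0.51%) and 0 in DBA/2J (0%), and members were 0 of 35 in each. With the 3 unsettled arrays reversed the calls in B6.C and BI6Jx went to 0 and those in C3H to 102. At an unadjusted p under 0.05 there were 0 members in A/J, where 0.42% of probes passed, 4 in B6.C (5.77%), 3 in BI6Jx (6.39%), 1 in BalbxJ (8.29%), 2 in C3H (12%) and 1 in DBA/2J (6.2%). In A/J, where few probes of any kind passed, Cox7a2 came first, with a coefficient of -1.34 (SE 0.743; adjusted p = 1 by limma), and lay below 0 on 5 of 6 arrays.

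The 4 members of B6.C were Cox6b1, Atp5l, Atp5g2 and Sdhc, all on the negative side, where 5.27% of all probes passed against 0.496% on the positive side. Cox6b1 ran from -2.59 to 0.448 over 8 arrays with a median of -1.53, and its coefficient was -1.32 (SE 0.39; limma, adjusted p = 0.232). Atp5l, a small membrane subunit of the ATP synthase, was below 0 on all 8 arrays, from -1.45 to -0.236, with a coefficient of -0.991 (SE 0.327; limma, adjusted p = 0.364). Atp5g2 was below 0 on 7 of 8 arrays and Sdhc on 5 of 8. Arrays 50 and 53 belong to this strain, and with the unsettled arrays reversed the coefficients were -0.202 for Cox6b1, -0.355 for Atp5l, -0.927 for Atp5g2 and 0.205 for Sdhc.

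In BI6Jx the complex I accessory subunit Ndufb11 stood at -0.634 and -0.445 on the Cy5 arrays and at 0.326 and -2.36 on the Cy3 arrays, the last being array 97. Its coefficient was -0.779 (SE 0.313; limma, adjusted p = 0.765), and 0.403 with the unsettled arrays reversed. Cox7a2 had values on 3 arrays of that strain, 3.57 and 3.65 with irradiated RNA in Cy5 and 1.41 on array 97, and Cox7c, a small subunit of complex IV, was below 0 on 3 of 4, down to -1.47 on array 97. With the unsettled arrays reversed their coefficients were 1.41 and 0.072. In BalbxJ Cox7a2l was below 0 on 6 of 7 arrays, with a median of -1.73 and a coefficient of -1.69 (SE 0.591; limma, adjusted p = 0.519). In C3H the members were Cox6a2, below 0 on all 5 arrays with a value, and Atp5b, which rested on array 27. In DBA/2J Atp5e stood at 1.73, 1.16, 0.812 and -0.645, with a coefficient of 0.764 (SE 0.338; limma, adjusted p = 0.774).

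A difference between strains was tested by the F statistic of the same fit. At an adjusted p under 0.05 there were 0 of 14513 probes (0%) and 0 of 35 members, and at an unadjusted p under 0.05 there were 853 probes (5.88%) and 1 member. That member was Ndufb11 (F = 2.87, limma, adjusted p = 0.817). Its strain values were 0.524 in C3H, 0.347 in B6.C, 0.141 in A/J, -0.099 in BalbxJ, -0.32 in DBA/2J and -0.779 in BI6Jx. The 5 C3H arrays with a value were all above 0 (0.123 to 1.14), while in BI6Jx 1 of 4 was. Next came Cox6a2 (F = 2.11, limma, adjusted p = 0.874), from -0.781 in C3H to 0.674 in BI6Jx, and Cox7c (F = 2.05, limma, adjusted p = 0.874), from -0.664 in BI6Jx to 0.302 in B6.C. For each of these genes BI6Jx stood at an end of the order of strains. With the 3 unsettled arrays reversed, F was 1.6 for Ndufb11, 1.63 for Cox6a2 and 0.728 for Cox7c. The BI6Jx coefficients were then 0.403, 0.077 and 0.072, and BI6Jx was at neither end for any of these genes.

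By strain, the median over the 35 members was -0.189 in B6.C, -0.166 in A/J, -0.066 in C3H, 0.018 in BalbxJ, 0.031 in BI6Jx and 0.059 in DBA/2J. The median over all tested probes in the same order was -0.049, -0.031, -0.063, 0.046, -0.049 and 0.064. Leaving out single arrays moved these medians across 0 in C3H (-0.247 to 0.051), BalbxJ (-0.074 to 0.121), BI6Jx (-0.14, without array 97, to 0.199) and DBA/2J (-0.031 to 0.128). Members on the positive side numbered 12 of 35 in B6.C (43.7% of all probes), 10 in A/J (44.4%), 14 in C3H (44.1%), 18 in BalbxJ (55.5%), 18 in BI6Jx (46.4%) and 18 in DBA/2J (55.7%). On single arrays of A/J the median over members with a value lay between -0.828 and 0.274 and was above 0 on 3 of 8. B6.C arrays lay between -0.211 and 0.073, with 1 of 8 above 0, and BalbxJ arrays between -0.464 and 0.566, with 2 of 8. The bounds were -0.315 and 0.624 in C3H (4 of 6 above 0), -0.422 and 0.491 in BI6Jx (2 of 4) and -0.083 and 0.156 in DBA/2J (2 of 4). The ranges of all 6 strains overlapped and included 0. Of the other marker lists, those of erythroid cells (4 of 9 tested on the positive side, median -0.091), B cells (4 of 7, 0.011), T cells (2 of 3, 0.055) and macrophages (1 of 4, -0.104) lay on both sides of 0, and their part in the members' medians was not tested.

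The complexes did not share an order of strains. The median of complex I was highest in DBA/2J (0.363) and lowest in B6.C (-0.219), with 7 of 12 members on the positive side in BI6Jx, BalbxJ and DBA/2J, 5 in C3H and 3 in A/J and B6.C. That of complex III ran from -0.163 in A/J to 0.333 in BI6Jx and was also below 0 in C3H (-0.087), while B6.C, BalbxJ and DBA/2J stood at 0.215, 0.266 and 0.269. This order hung on the 3 unsettled arrays. With them reversed, the BI6Jx coefficients of Cycs, Uqcr11, Uqcrb, Uqcrc1 and Uqcrfs1 lay between -0.723 and -0.319, and Cyc1 stood at 0.266. In B6.C the same genes lay between -0.335 and -0.114, and Cyc1 stood at 0.112. The median of complex IV was below 0 in every strain but BI6Jx (0.114), with B6.C the lowest at -0.335. That of complex V was below 0 in every strain but BalbxJ (0.018), with A/J the lowest at -0.225. These medians rest on 12, 6, 9 and 7 genes and were not tested.

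**Figure D3:**
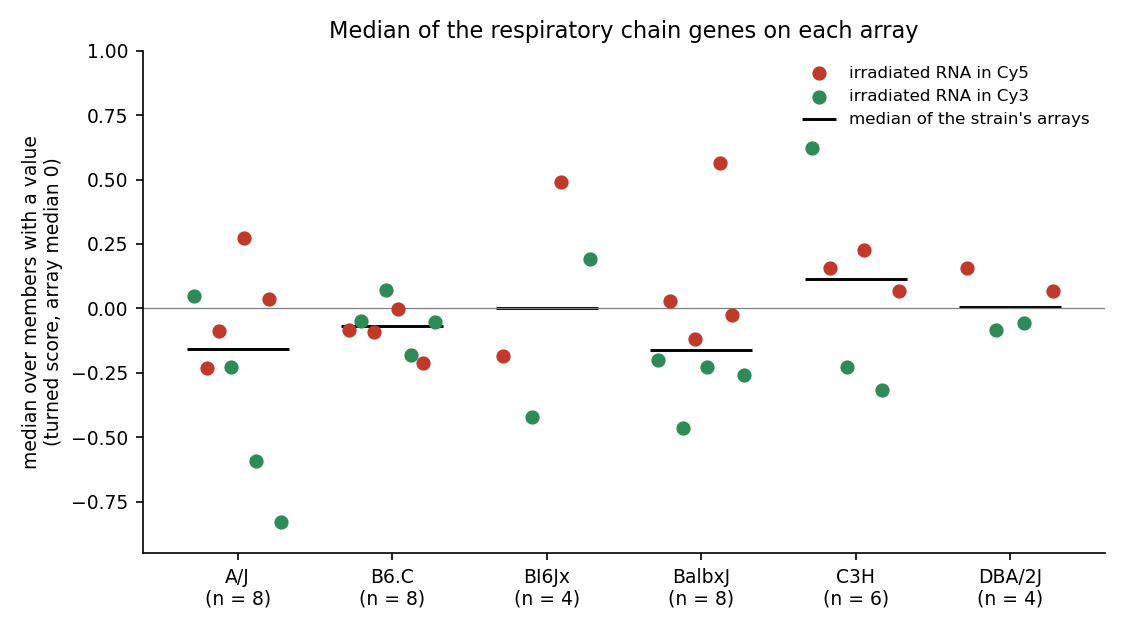
Median turned score over the members with a value (vertical axis) on each of the 38 arrays, by strain. Points are arrays, coloured by the dye of the irradiated RNA, and bars are the medians of a strain's arrays. All 6 strains span 0, and A/J has the lowest array, at -0.828.

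The members had larger mean values before the sign was turned than after it. If every deposited ratio was taken in the same dye direction, a value that keeps its sign when dyes are exchanged goes with the dye, and if ratios were already set by treatment it is the response, and which holds was not tested. Taken without turning, the size of the mean over strains had a median of 0.41 over the 35 members, and after turning 0.185. The value without turning was the larger in 27 of 35 members (77.1%), as in 72.8% of all tested probes. Cox7a2 had the highest value without turning, 1.38, followed by Uqcrfs1 (1.13), Ndufa12 (1.11) and Ndufa5 (1.04), and Cox8b (-0.619) and Atp5b (-0.591) had the lowest. Without turning, 15 of 35 members had an unadjusted p under 0.05 (24.2% of all probes), and 0 passed at an adjusted p under 0.05 by limma. The turned mean was the larger of the pair for Uqcrb, Cox6b1, Cox7a2l, Sdhc, Atp5a1, Cycs, Ndufb7 and Uqcrc1.

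**Figure D4:**
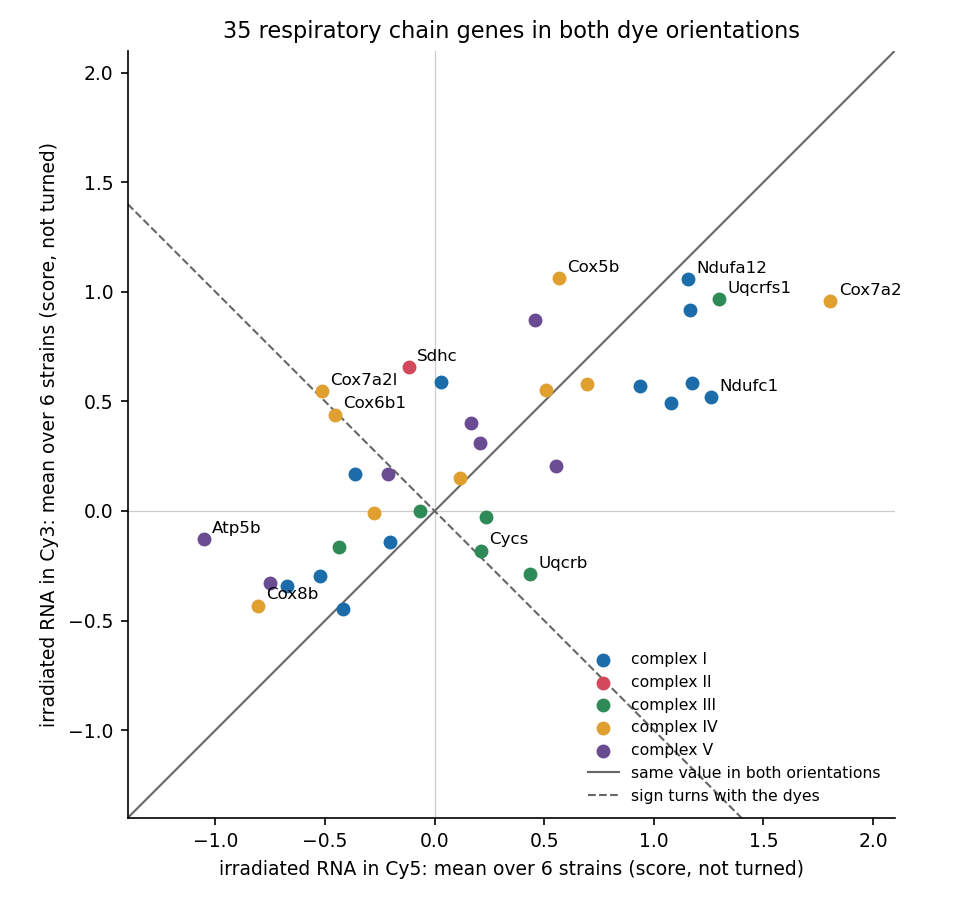
Mean over 6 strains of the 35 tested members, not turned, on arrays with irradiated RNA in Cy5 (horizontal axis) and in Cy3 (vertical axis), in deposited score units with array medians at 0. Points near the solid line kept their value when dyes were exchanged, and points near the dashed line turned their sign. The value without turning was the larger in 27 of 35 members.

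The same was seen when each orientation was tested alone within strains. On the Cy5 arrays 17 member and strain combinations had an adjusted p under 0.05 in limma, 9 of them in BalbxJ (where 15.6% of all probes passed), 4 in C3H (17.6%), 2 in BI6Jx (3.94%) and 2 in DBA/2J (1.92%). A/J had 0 (0%) and B6.C 0 (0.0304%). On the Cy3 arrays there were 8, all in C3H (28.4%), with 0 in BI6Jx (0.0998%), in BalbxJ (0.0665%) and in the other strains (0%). A difference between strains was called on the Cy5 arrays for 1 member, Cox4i1 (F = 8.18, limma, adjusted p = 0.021; 6.91% of all probes), and on the Cy3 arrays for 0 (6.94%). Of the 17, 16 had a value in the other orientation, and in 16 of 16 the turned sign was opposite there. For the 8 of the Cy3 arrays this held in 8 of 8. Among all such calls the shares were 89.9% and 92.9%, so the members did as the other probes did.

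In BalbxJ the Cy5 calls on the positive side were Cox4i1, Cox7a2, Ndufa7, Ndufa10, Ndufa12, Ndufb5, Ndufc1 and Uqcrfs1, and Atp5g1 was on the negative side. Uqcrfs1 averaged 3.02 on 4 Cy5 arrays and -2.14 on 3 turned Cy3 arrays of that strain, and Cox7a2 averaged 3.87 and -2.13. In C3H the Cy5 calls were Cox8b, Ndufa1, Ndufb2 and Ndufb8, all on the negative side, and the Cy3 calls were Atp5g1, Cox8b, Ndufa6, Ndufa9, Ndufb8, Uqcr11 and Uqcrb on the positive and Ndufa5 on the negative side. Cox8b and Ndufb8 thus appeared in both orientations there, with opposite turned signs. Cox8b stood at -3.68 on 2 Cy5 arrays and 3.12 on 2 Cy3 arrays. Ndufb8 stood at -3.1 on 1 Cy5 array and 1.85 on 2 Cy3 arrays, so its strain value leans on a single array. The strain values over both orientations, as used above, were -0.28 for Cox8b and -0.625 for Ndufb8 in C3H, and in BalbxJ 0.441 for Uqcrfs1 and 0.87 for Cox7a2.

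Tissue-restricted isoforms offer a comparison within complex IV. Cox6a2 and Cox8b are the heart and skeletal muscle forms of Cox6a1 and Cox8a, Cox7a1 is that of Cox7a2, and Cox8b is also used by brown fat. Cox6a2 had values on 37 arrays, from -1.29 to 3.3 with a median of -0.2, and a mean over strains of 0.058 ± 0.519 (SD, n = 6; limma, adjusted p = 0.915). Its ubiquitous counterpart Cox6a1 ran from -2.6 to 3.04 over 38 arrays, with a mean of -0.022 ± 0.541. Cox8b had values on 23 arrays, from -5.1 to 3.88, with a mean of -0.187 ± 0.475, and Cox8a on 20 arrays, from -1.46 to 0.637. Cox7a1 had values on 11 arrays, all between -0.411 and 0.278. In the C3H strain, where Cox6a2 was below 0 on all 5 arrays, the markers of striated muscle had a median of -0.243. Its arrays 26 and 28 carried irradiated RNA in Cy3. There these markers had medians of 0.596 and 0.414, and Cox6a2 stood at -0.869 and -1.2. On arrays 25, 27 and 29, with irradiated RNA in Cy5, the markers had medians of -0.984, -0.851 and -0.592. Cox6a2 stood there at -0.369, -0.953 and -0.26. The turned sign of the marker medians thus went with the dye orientation on these arrays. Over all strains these markers had a median of -0.039, with 3 of 8 on the positive side, and those of adipose tissue -0.142, with 0 of 5, and their part in the values of the isoforms was not tested.

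Members were also compared with one another over arrays, after the mean of each dye orientation was taken from each probe. Over 782 pairs of 41 members that shared at least 19 arrays, the median r was 0.079, against 0.0016 over 13066602 pairs of named probes. Within complexes the median was 0.072 (184 pairs) and between complexes 0.081 (598 pairs). It was 0.447 over the 15 pairs of complex III, 0.105 in complex I, -0.013 in complex IV and 0.009 in complex V, and 0.167 over pairs of cytosolic ribosomal protein genes. These are descriptions, since pairs share arrays, mice and their hybridisation, and as deposited, without centring of arrays, the median over member pairs was 0.805.

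An absolute r of at least 0.8 was reached by 9 member pairs (1.15%), against 1.14% of pairs of named probes and 8% of pairs of cytosolic ribosomal protein genes, so strong pairs were no more frequent among the members than in the background. Ndufa7 and Ndufc1, both on all 38 arrays, had an r of 0.917. It was 0.926 on Cy5 arrays, 0.927 on Cy3 arrays and 0.859 after the mean of each strain and orientation was taken out. Ndufa7 ran from -1.98 to 4.3 and Ndufc1 from -1.77 to 4.72, and both had their highest value on array 36 of BalbxJ. Cox4i1, the widely expressed form of subunit IV of complex IV, and Uqcrfs1 had an r of 0.916 over 26 arrays, and Cox5b and Ndufa10 one of 0.889 over 32. The muscle form Cox6a2 followed Ndufa10 (0.873 over 35 arrays) and Cox5b (0.807 over 33). The lowest r was -0.727, between Cox4i1 and Ndufb11 over 28 arrays, and Atp5a1 and Cox8a had negative medians with the other members (-0.31 and -0.352).

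**Figure D5:**
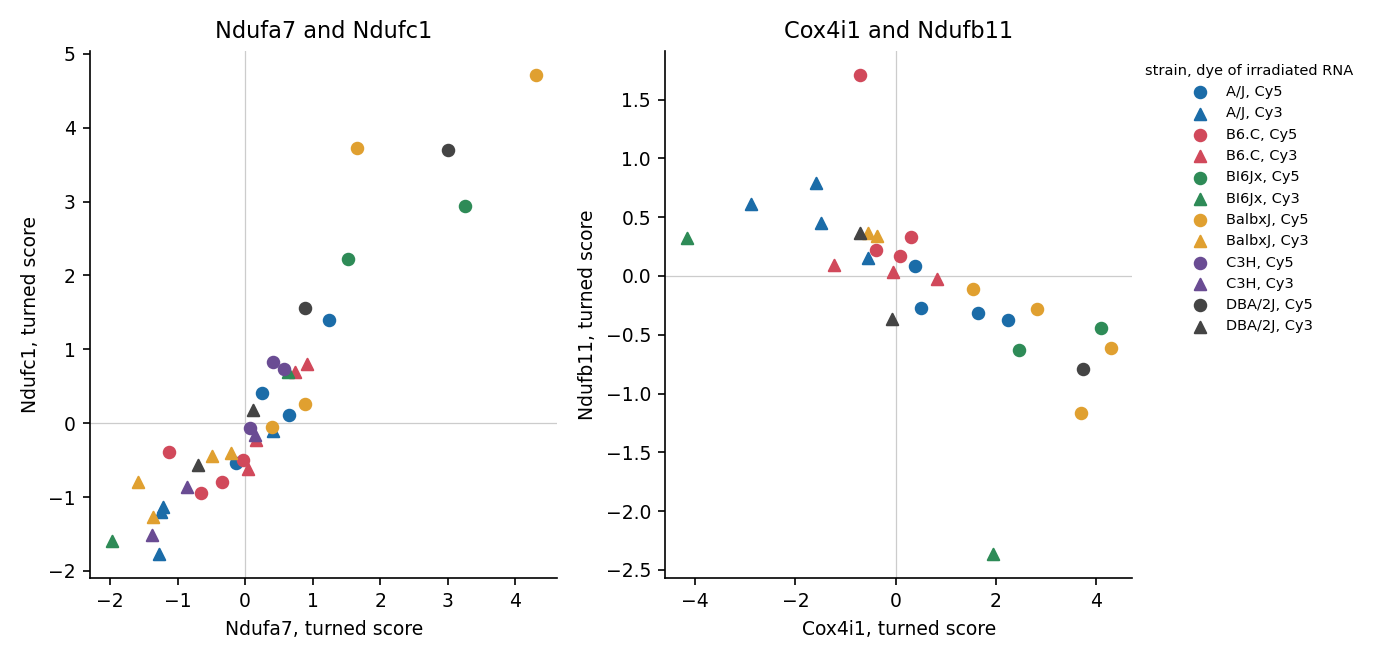
Turned scores of Ndufa7 against Ndufc1 (left) and of Cox4i1 against Ndufb11 (right) on each array with both values. Points are arrays, coloured by strain, as circles with irradiated RNA in Cy5 and triangles with it in Cy3. The first pair rises together (r = 0.917, 38 arrays) and the second runs against each other (r = -0.727, 28 arrays), both computed after the mean of each orientation was taken out.

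Other mitochondrial genes on the array were as sparse in calls. At an adjusted p under 0.05 over all strains there were 0 of 3 tested genes of the TCA cycle and pyruvate dehydrogenase, 0 of 4 regulators of respiratory genes, 0 of 3 assembly factors outside the naming rule, 0 of 6 inner membrane carriers and porins and 0 of 24 mitochondrial ribosomal protein genes. At an unadjusted p under 0.05 limma gave 1 of 6 carriers and 5 of 24 mitochondrial ribosomal protein genes (2 positive, 3 negative), and 0 in the other lists named. Of all 14513 probes 8.21% had an unadjusted p under 0.05 (4.27% positive, 3.94% negative), and 0 passed at an adjusted p under 0.05. Mdh2, mitochondrial malate dehydrogenase, had a mean of -0.351, citrate synthase (Cs) of -0.131 and Pdha1 of 0.013. Of the regulators, Yy1 had a mean of -0.132, Tfb2m, a mitochondrial transcription factor, of 0.103 and the coactivator Ppargc1a of 0.032. The carrier was the uncoupling protein Ucp3, at 0.341 (limma, adjusted p = 0.567), and its relatives Ucp2 and Ucp1 stood at -0.287 and -0.161. Ecsit, which assists complex I assembly, stood at 0.341, the ATP synthase inhibitor Atpif1 at -0.207 and Uqcc1, for complex III, at 0.201. Mrpl35, at -0.502 and below 0 in all 6 strains, Mrpl10, at -0.59, and Mrpl19, at 0.461, led the mitochondrial ribosomal protein genes, and their list had a median of -0.031. Cytosolic ribosomal protein genes had a median of -0.069 with 0 of 50 called, led by Rps16 (-0.323), Rpl36a (-0.289) and Rps20 (-0.289).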

How the data were processed

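The data are 38 two-colour arrays of spleen RNA. Per the study's methods, poor and dim spots were discarded, local background was subtracted and arrays were normalized by Lowess. The deposited table holds 1 signed number for each spot on each array, treated here as a score of unknown scale in place of the log2 ratios that the design foresaw. Blank, buffer and Alien control spots (1235 of 23232) were left out, repeated spots were averaged, arrays were centred on their medians, and probes were named by accession in a RefSeq table of GRCm38.p6. Tests used limma 3.58.1 (lmFit and eBayes) with statmod 1.5.0 in R 4.3.3, with Benjamini-Hochberg adjustment over all 14513 probes tested. The labels do not say which arrays repeat the same mice, so strains were the units over all strains, and the within-strain p-values measure the spread between arrays, which may be technical. The number of arrays limits the precision. Figures were drawn with matplotlib 3.10.9. The scripts were tested on simulated data.

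Genes given in full are the 3 members with the smallest p in each complex, the smallest-p member of each strain, the 3 that came first in the test between strains, members with 1 sign in all strains and tissue-restricted isoforms with their counterparts. In other lists the 3 genes with the smallest p are named. The correlated pairs, the members with an unadjusted p under 0.05 within a strain and Ndufc1, Ndufa7 and Cox7a2 were named after their values were seen. The members and lists were chosen with earlier results of these data known. Alternatives in centring, filters, array signs, units and orientations were run, and each array and strain was left out in turn. Those for the pair correlations were chosen after seeing the data.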

Additional observations from a re-analysis of the deposited data

Results flagged for a closer look

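Over 142 groups of 4 to 10 values (the strain values of each gene given in full, its arrays in each strain, and the member median by array in each strain), 11 held a value that stood apart from the rest of its group by Dixon's criterion at 95%, and chance gives about 1 group in 20.

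Of these, 10 were single arrays. Atp5b stood at -13.1 on array 27 of C3H and Cox6b1 at -1.74 on array 28 of C3H, where the other 5 arrays lay between -0.254 and 0.624. In BalbxJ, array 36 held Cycs at 4.16 and Uqcrb at 4.49, and array 35 held Atp5e at 2.28 where the other 6 lay between -0.906 and 0.31. In B6.C, array 53, one of the arrays of unsettled direction, held Cox7c at 1.48 and Ndufb11 at 1.71, where the others reached 0.561 and 0.329. In BI6Jx, array 97, also unsettled, held Sdhc at -2.62, and array 95 held Atp5g1 at -1.01 where the other 3 lay between -0.137 and 0.028. Cycs stood at 0.642 on array 68 of DBA/2J, where the other 3 lay between -0.198 and -0.095.

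Among strain values, Cox5b in DBA/2J stood at 0.483, above the other 5 strains (-0.476 to -0.206). That value averages 2.07 on Cy5 arrays and -1.11 on turned Cy3 arrays.

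Cox7a2l was above 0 on all 6 arrays of C3H and below 0 on all 3 arrays with a value of DBA/2J, with coefficients of 0.702 and -1.27 that differ by 1.98. This difference between the 2 strains was not tested by itself.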

How the results depend on the processing

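No paired analysis was possible because the comparison is made within arrays and the labels do not tie replicate numbers to mice across groups. The cause of the changes below was not tested, apart from fewer probes or arrays where a setting keeps fewer.

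Over all strains the members called stayed at 0 under every alternative, and all probes rose from 0 to 31 with values as deposited. Within strains, 0 members were called except without the filter on missing values (2, both in C3H: Ndufa1 at -4.74, on 2 arrays, and Sdhaf4 at 2.9, on 4), on Cy5 arrays alone (17) and on Cy3 arrays alone (8). Calls within strains over all probes, 106 in all, became 2 with values as deposited, 45 with arrays centred on probes measured on all arrays, 1042 without the filter, 13 over probes with values on all 38 arrays, 438 with a dye term per strain, 6415 on Cy5 arrays and 4294 on Cy3 arrays. A difference between strains was called for 1 member on Cy5 arrays, and over all probes for 233 without the filter, 1 over probes on all 38 arrays, 105 with a dye term per strain, 1136 on Cy5 arrays and 1044 on Cy3 arrays.

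With values as deposited, the median of all probes moved from -0.00675 to 0.121, 20 of 35 members lay on the positive side, and the members' median was 0.692 in B6.C, -0.636 in BalbxJ, -0.492 in C3H and 0.872 in DBA/2J, and by complex 0.0912 in IV and -0.0752 in V. Over probes on all 38 arrays it was -0.293 in B6.C, 0.746 in BI6Jx, 0.722 in DBA/2J and 0.332 in complex I. Complex II and Sdhc stood at 0.000788 with 3 arrays reversed, and complex V at -0.0575 without B6.C. The mean over strains changed sign in 10 of 35 members with values not turned and in 9 of 35 with 3 arrays reversed. Among the first were Ndufb3 (0.308), Sdhc (0.27), Cox7a2l (0.0163) and Cox5b (0.814), and among the second Cycs (-0.00316) and Uqcrfs1 (-0.084). The mean of Cox8b changed sign with values as deposited (0.325), that of Uqcrfs1 without the 3 arrays (-0.119), and the BI6Jx coefficient of Ndufb11 with them reversed (0.403).

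Leaving out 1 array in turn kept the members called at 0, while calls within strains over all probes ran from 48 (without BI6Jx replicate 1 or B6.C replicate 1) to 482 (without C3H replicate 2). They moved by over 1.5 times also without C3H replicates 1 (59), 4 (204) and 6 (54), BalbxJ replicates 1 (69), 4 (70) and 5 (68), BI6Jx replicate 2 (63), B6.C replicates 2 (65) and 5 (59), DBA/2J replicate 4 (53) and A/J replicate 4 (65). Differences between strains ran from 0 to 4 (4 without C3H replicate 2, 2 without C3H replicate 4 or BI6Jx replicate 3, 1 without C3H replicate 5). The B6.C median ran from -0.225 to -0.0683, and Uqcrfs1 from -0.109 without BI6Jx replicate 4 to 0.441 without BI6Jx replicate 2.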
